A study of Homo sapiens with 10 samples.

Results

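The tight junction genes described here are 9 membrane and scaffold genes: the claudins CLDN1, CLDN3, CLDN4 and CLDN7, the MARVEL-domain genes OCLN (occludin), MARVELD2 (tricellulin) and MARVELD3, and the zonula occludens genes TJP1 (ZO-1) and TJP3 (ZO-3). They were listed by name, with earlier results of these data known, and found as the entries whose gene field held one of these symbols. Each matched 1 of the 23170 gene entries in all 4 tables. The RNA-seq covered 10 samples of PC3, an established human prostate cancer line. PC3-Epi (2 samples) is an epithelial population of PC3 that carries a luciferase vector and was picked by colony for light signal and epithelial shape. PC3-EMT14 (3 samples) is a mesenchymal population isolated from PC3-Epi after co-culture with human macrophages. From it, lentiviral overexpression of a zinc-finger transcription factor followed by selection gave PC3-EMT14-OVOL1 (3 samples, factor OVOL1) and PC3-EMT14-OVOL2 (2 samples, factor OVOL2). Below, these are also called the OVOL1 line and the OVOL2 line, PC3-EMT14 the mesenchymal line and PC3-Epi the epithelial line. All 4 lines thus share the PC3 origin and the luciferase vector, and 3 of them descend from 1 mesenchymal population. The labels give the control of both OVOL lines as PC3-EMT14 and name no vector.

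Tight junctions seal neighbouring epithelial cells near their apical border and separate apical from basolateral membrane. Claudins are tetraspan proteins that form the strands and set which ions and solutes pass between cells. Occludin, tricellulin and MARVELD3 are tetraspan MARVEL proteins of the same strands, with tricellulin concentrated where corners of several cells meet. The ZO proteins are cytoplasmic scaffolds that tie the strands to actin. Loss of these junctions is a textbook feature of the epithelial to mesenchymal transition (EMT), and their return one of the reverse process, the mesenchymal to epithelial transition (MET).

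The tables held 1 pooled FPKM per line (a fragment count scaled to transcript length and to the library, so a level per length) and no value per sample. No spread between replicates, no test and no interval could therefore be given, whether samples of different lines overlap cannot be seen, and the depth is unknown. In such bulk samples, fewer cells expressing a gene and less of its RNA per cell cannot be told apart. A gene was counted as higher or lower where the authors' pooled values differed at least 2-fold with at least 1 FPKM in the higher line. The 3 comparisons with PC3-EMT14 share that control, so their values are given side by side. The tables name the groups hr14, with or without the OVOL factor, and pc3, which were read as the PC3-EMT14 lines and PC3-Epi, the epithelial group of the labels. Each table was normalized separately. The same line differed between tables by a median factor of 0.99 to 1.03.

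The values of the lines followed their names. OVOL1 was at 0.0238 FPKM in the mesenchymal line and 11.3 FPKM in the OVOL1 line, and OVOL2 was at 0.370 FPKM in the mesenchymal line and 831 FPKM in the OVOL2 line. PC3-Epi had 4.25 FPKM of OVOL1 and 9.91 FPKM of OVOL2, so the added OVOL2 lay far above its level in the epithelial line. Of 5 epithelial markers, 4 reached 1 FPKM in the mesenchymal line in every table. The other, CDH1, was there at 0.971 to 1.00 FPKM depending on the table. All 5 markers reached 1 FPKM in the other lines. Their summed level was 881, 996, 1511 and 1664 FPKM in the mesenchymal, OVOL1, OVOL2 and epithelial lines. Its largest part in every line was KRT19, at 656, 608, 862 and 742 FPKM, which did not follow the order of the sums. EPCAM, at 23.0, 87.6, 151 and 224 FPKM, did. The 5 mesenchymal markers summed to 330, 224, 107 and 89.9 FPKM in the same order. VIM carried most of this sum in PC3-EMT14, at 265 FPKM, and was at 183, 76.9 and 42.5 FPKM in the others. FN1, at 36.0, 18.4, 16.5 and 33.8 FPKM, and SPARC, at 4.23, 4.92, 1.68 and 2.17 FPKM, did not follow the sum. Nor did CDH2, at 17.6, 13.3, 10.1 and 11.3 FPKM. Of 5 markers of macrophages, the co-culture partner, only CD68 reached 1 FPKM. It was at 53.0, 51.2, 57.8 and 13.2 FPKM in that order, while CD14, CSF1R, PTPRC and CD163 were at or below 0.0921 FPKM in every line. KLK3, a marker of luminal prostate cells, was listed at 0 in every line.

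Before the values, promoter sequence of 3 members is shown: CLDN7 and OCLN, which were higher in both OVOL lines, and CLDN4, the most abundant member, which was nearly level. They were picked after their values were seen, and other members go against the contrast of their motifs, as described after the sequences. The windows are from RefSeq on GRCh38.p14 and run from 250 bases before to 50 after an annotated start. They were placed on GRCh37 (hg19), the build of the tables, by exact match. Capitals mark CAGGTG on either strand, the E-box recognised by EMT factors such as ZEB1. On the other strand it reads CACCTG.
CLDN7 (chr17:7165748-7166047, minus strand): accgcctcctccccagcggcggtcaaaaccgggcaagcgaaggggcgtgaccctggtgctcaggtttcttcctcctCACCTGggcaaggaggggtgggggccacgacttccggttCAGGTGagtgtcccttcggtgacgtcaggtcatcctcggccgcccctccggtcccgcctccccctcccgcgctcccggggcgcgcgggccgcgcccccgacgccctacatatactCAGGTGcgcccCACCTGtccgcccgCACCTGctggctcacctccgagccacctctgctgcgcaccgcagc
OCLN first start (chr5:68788124-68788423, plus strand): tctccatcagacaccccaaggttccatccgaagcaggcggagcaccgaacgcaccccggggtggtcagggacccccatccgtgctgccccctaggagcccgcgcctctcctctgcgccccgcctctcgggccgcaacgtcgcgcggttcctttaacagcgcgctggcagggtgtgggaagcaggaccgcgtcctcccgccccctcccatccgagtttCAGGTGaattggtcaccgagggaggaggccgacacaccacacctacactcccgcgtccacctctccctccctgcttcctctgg
OCLN second start (chr5:68788367-68788666, plus strand): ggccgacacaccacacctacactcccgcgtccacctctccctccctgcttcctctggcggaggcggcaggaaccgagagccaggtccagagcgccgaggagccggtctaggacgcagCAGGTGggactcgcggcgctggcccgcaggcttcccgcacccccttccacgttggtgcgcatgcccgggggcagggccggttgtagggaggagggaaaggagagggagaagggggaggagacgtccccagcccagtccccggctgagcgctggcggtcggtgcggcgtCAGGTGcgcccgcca
CLDN4 (chr7:73245076-73245375, plus strand): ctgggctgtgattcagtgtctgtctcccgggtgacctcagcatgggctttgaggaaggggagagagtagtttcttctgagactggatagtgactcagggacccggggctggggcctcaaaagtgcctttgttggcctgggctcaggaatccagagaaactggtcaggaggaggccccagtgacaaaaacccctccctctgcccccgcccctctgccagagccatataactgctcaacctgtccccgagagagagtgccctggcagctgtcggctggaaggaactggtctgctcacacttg

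The CLDN7 window held 5 E-boxes, beginning at -174, -135, -20, -9 and +5 from the start, and 0.094% of the 35116 windows of this length in the table held as many or more. Its start lies 715 bases inside the CLDN7 entry. The other CLDN7 start, 20 bases upstream of the entry's end, had none. The first OCLN window held 1 E-box and the second held 2, while the CLDN4 window had none. Windows were given for 8 of the 9 members, and those of 5 members held the E-box, in 6 of 14 windows. Over all windows the share was 20.6%. The other members with the motif were CLDN3, TJP3 and TJP1, with 1 each. The TJP3 start with the motif lies 6639 bases upstream of the entry measured here, and that of TJP1 146546 bases. CLDN3 has the motif and was nearly level with either factor, at 1.01- and 1.05-fold. CLDN1 and MARVELD2 have none and were 2.69- and 2.61-fold higher with OVOL2. The grainyhead-type letters AACCGGTT and the OVOL2 consensus were searched on both strands and found in 0 of the 14 windows, against 0.134% and 0.98% of all windows. These matches describe letters in a window and are not evidence of binding.

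Across the lines, CLDN1, CLDN7, OCLN, MARVELD2 and MARVELD3 had levels in the ascending order mesenchymal, OVOL1, OVOL2 and epithelial line. The share of all genes in this order was not computed. These orders join separately normalized tables, and some steps are small, such as 1.05-fold for OCLN from the OVOL2 line to PC3-Epi. TJP1 and TJP3 were also lowest in PC3-EMT14, but highest in PC3-EMT14-OVOL2. CLDN3 and CLDN4 ran in another order, lowest in PC3-Epi and highest in PC3-EMT14-OVOL2. With 1 value per line, which neighbours in these orders differ beyond their spread cannot be said.

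**Figure D1:**
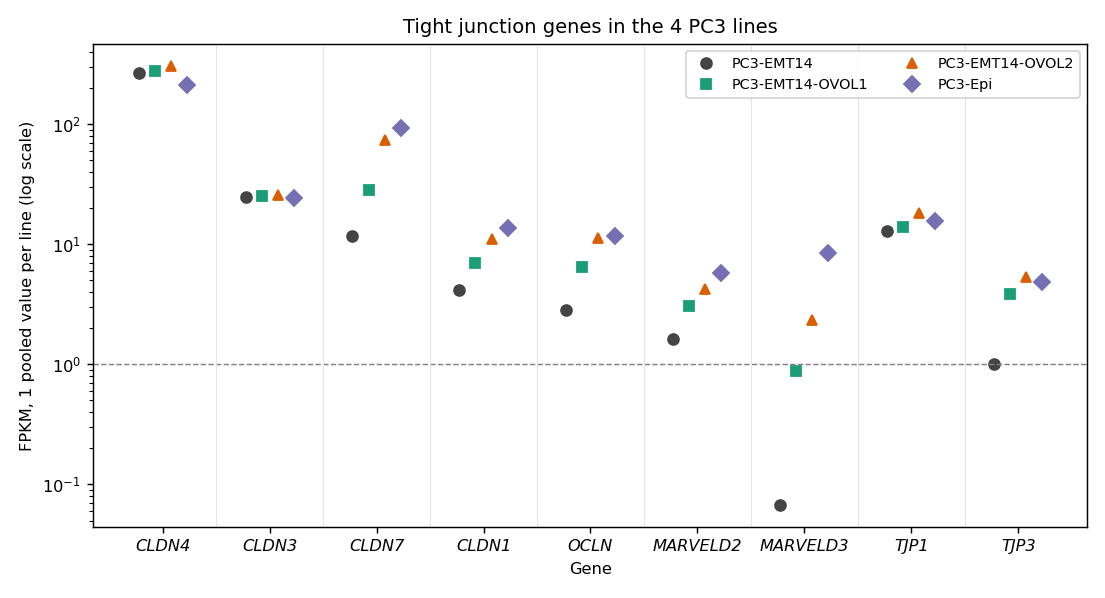
The authors' pooled FPKM of the 9 genes (log scale) in PC3-EMT14 (circles), the OVOL1 line (squares), the OVOL2 line (triangles) and PC3-Epi (diamonds), 1 value per line, the first 2 lines from the table that compares them and the dashed line at 1 FPKM. CLDN4 stays between 212 and 306 FPKM, while MARVELD3 spans 0.0676 to 8.48 FPKM.

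With OVOL1, 3 of the 9 genes exceeded the mesenchymal line at least 2-fold and 0 were below it by as much. They were CLDN7, OCLN and TJP3. Over the 12111 genes at 1 FPKM or more in this comparison, 2.06% were higher and 1.23% lower. MARVELD3 stayed under 1 FPKM in both lines and could not count. The members' log2 fold changes ran from 0.01 for CLDN3 to 3.71 for MARVELD3. Those of CLDN3, CLDN4 and TJP1 were above 52.4%, 61.4% and 65.8% of all genes, so these members did not stand out. The median over the members was 0.90, against -0.0018 over all genes.

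With OVOL2, 6 of the 9 genes were at least 2-fold higher and 0 lower: CLDN1, CLDN7, OCLN, MARVELD2, MARVELD3 and TJP3. The shares over all 12226 genes were 4.16% higher and 2.58% lower. The members' median log2 fold change was 1.43, against -0.04 over all genes. Against OVOL1 cells, in their own table, the members ran from 1.04-fold (CLDN3) to 2.67-fold (MARVELD3) higher in the OVOL2 cells. CLDN3 and CLDN4 were above 68.5% and 79.9% of all genes there. Of the members, CLDN7 and MARVELD3 passed 2-fold and 0 were lower by as much. The shares over all 12113 genes were 1.68% higher and 0.801% lower. The median difference between the OVOL lines was 0.49 on the log2 scale, against -0.04 over all genes. The OVOL lines differ in the factor expressed, in its level and in the construct. By the paper's methods, OVOL2 was cloned into a lentiviral vector with an epitope tag, and OVOL1 came as a purchased construct. The parts of these cannot be told apart. As the labels name no vector for PC3-EMT14, the factor and the transduction with selection cannot be told apart in the comparisons with it either.

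PC3-Epi had CLDN1, CLDN7, OCLN, MARVELD2, MARVELD3 and TJP3, 6 of the 9 genes, at least 2-fold above PC3-EMT14 and 0 below. Here 7.09% of 12344 genes were higher and 7.96% lower, the widest spread of the 4 comparisons. The members' median log2 fold change was 1.79, against -0.014 over all genes. CLDN3 and CLDN4 were the 2 members with a lower value in PC3-Epi than in PC3-EMT14, by less than 2-fold. The study drew its own signature of MET in part from these samples, with junction genes among it, so the direction of the members is not independent evidence.

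**Figure D2:**
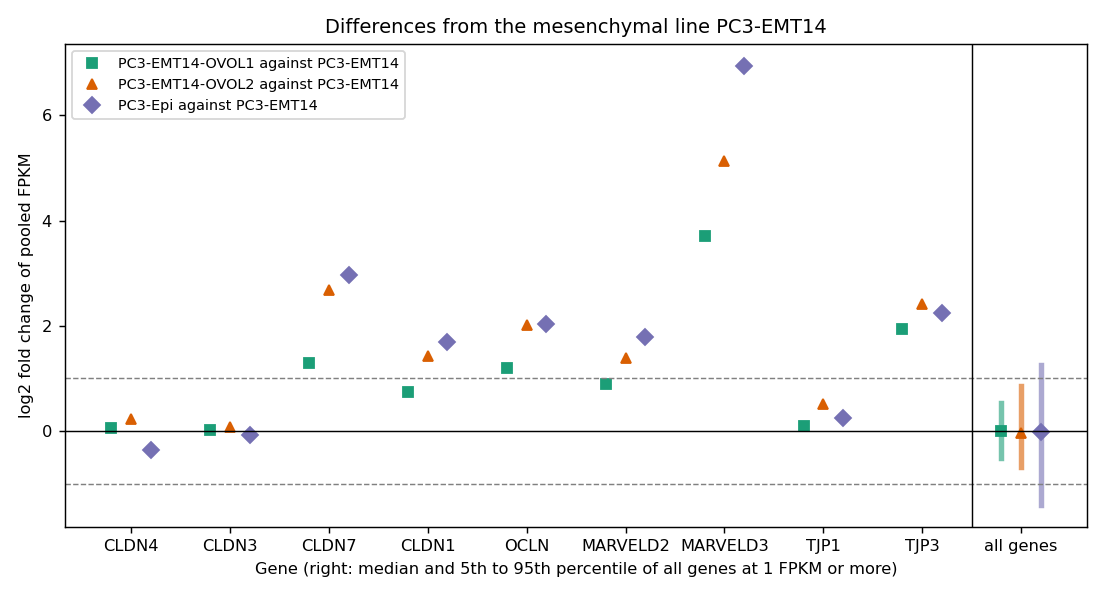
Log2 fold change of pooled FPKM against PC3-EMT14 for the 9 genes in the OVOL1 line (squares), the OVOL2 line (triangles) and the epithelial line (diamonds), with dashed lines at 2-fold. At the right, each symbol is the median and each bar the 5th to 95th percentile of all genes at 1 FPKM or more. CLDN3, CLDN4 and TJP1 lie inside the dashed lines in all 3 comparisons, and MARVELD3 reaches 6.94 in PC3-Epi. MARVELD3 was under 1 FPKM in both lines of the OVOL1 comparison.

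Of the 4 claudin members, CLDN7 (entry XLOC_008979, chr17:7155372-7166512, minus strand) had the widest fold between its lowest and highest line. CLDN7 is a claudin that also sits along the lateral membrane, where it binds EpCAM. Its level was 11.6 FPKM in the mesenchymal line and 28.6 FPKM in the OVOL1 line, which is 2.45-fold higher. In the OVOL2 table the mesenchymal line had 11.5 FPKM and the OVOL2 line 73.9 FPKM, a 6.41-fold difference. In the PC3-Epi table it was at 11.9 and 92.3 FPKM, a 7.76-fold difference. The OVOL2 line thus lay near the epithelial line and the OVOL1 line between. Its log2 fold change in the OVOL2 comparison was above that of 98.9% of all genes.

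The CLDN7 entry is wider than the annotated gene (chr17:7163222-7167302) and overlaps the entry of C17orf81. C17orf81 was at 28.1 FPKM in the mesenchymal line and at 29.2, 25.8 and 25.9 FPKM in the OVOL1, OVOL2 and epithelial lines, so its values did not follow those of CLDN7. A processed pseudogene, CLDN7P1, is annotated on chromosome X, and how reads shared with it were assigned was not tested.

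CLDN1 (XLOC_015288, chr3:190023490-190040235, minus strand), a claudin needed for the skin barrier, was at 4.19 FPKM in the mesenchymal line and 7.02 FPKM with OVOL1, 1.68-fold higher and short of the threshold. With OVOL2 it was at 11.1 FPKM against 4.14 FPKM, 2.69-fold higher. In PC3-Epi it was at 13.7 FPKM against 4.27 FPKM, 3.21-fold higher. The steps from line to line were 1.68-, 1.59- and 1.23-fold.

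CLDN4 (XLOC_019558, chr7:73245193-73247015, plus strand) and CLDN3 (XLOC_020098, chr7:73183327-73184600, minus strand) are barrier-forming claudins that serve as receptors for an enterotoxin of Clostridium perfringens. Their entries lie 60592 bases apart. CLDN4 was the most abundant member in every line, at 265 FPKM in PC3-EMT14, 277 FPKM with OVOL1 and 306 FPKM with OVOL2. PC3-Epi had 212 FPKM, 1.28-fold below the 271 FPKM of PC3-EMT14 in that table. CLDN3 spanned 24.1 FPKM in PC3-Epi to 25.9 FPKM with OVOL2, a 1.07-fold range that is the narrowest of the members. The mesenchymal line therefore carried as much CLDN3 transcript, and slightly more CLDN4, than the epithelial line it came from.

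Summed over the 23 claudin entries, of which 8 or 9 reached 1 FPKM in each line, claudin transcripts came to 337 FPKM in PC3-EMT14, 373 with OVOL1, 456 with OVOL2 and 378 in the epithelial line. CLDN4 made up 78.7%, 74.4%, 67.2% and 56.0% of these sums. The share of CLDN7 was 3.45%, 7.66%, 16.2% and 24.4%. CLDN4 and CLDN7 together thus held most of the pool in each line, and their balance differed more than the total did. Without CLDN4, the sums were 71.7, 95.6, 150 and 166 FPKM.

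**Figure D3:**
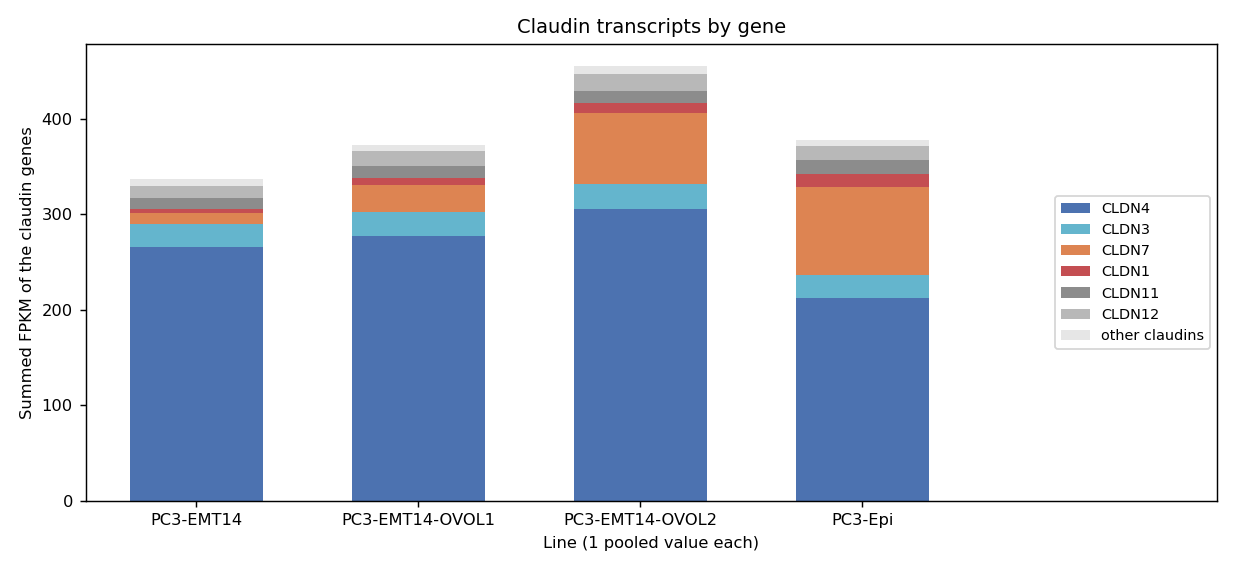
Summed FPKM of all claudin entries in each line, stacked by gene (1 pooled value per line, linear axis from 0). The CLDN4 layer is the largest in all 4 lines, and the CLDN7 layer grows from 11.6 FPKM (mesenchymal line) to 92.3 FPKM (epithelial line).

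OCLN (XLOC_016282, chr5:68788119-68850133, plus strand) was at 2.81 FPKM in the mesenchymal line and 6.44 FPKM with OVOL1, 2.29-fold higher. With OVOL2 it was at 11.2 FPKM against 2.78 FPKM, 4.02-fold higher. In PC3-Epi it was at 11.7 FPKM against 2.87 FPKM, 4.09-fold higher. The OVOL2 line and PC3-Epi thus had nearly equal OCLN levels, 1.05-fold apart. An unprocessed pseudogene, OCLNP1, is annotated on the same chromosome (chr5:70370052-70389020), and how reads shared with it were assigned was not tested.

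MARVELD2 (XLOC_016281, chr5:68710939-68737890, plus strand) lies 50228 bases from OCLN on the same strand. Its level was 1.63 FPKM in the mesenchymal line and 3.05 FPKM with OVOL1, 1.87-fold higher. With OVOL2 it was at 4.22 FPKM against 1.62 FPKM, 2.61-fold higher, and in PC3-Epi at 5.76 FPKM against 1.67 FPKM, 3.45-fold higher. Its differences were smaller than those of OCLN in each of the 3 comparisons. For both genes, the 5 nearest expressed entries on each side that are no members were read. Their median log2 fold change was -0.10, -0.12 and 0.05 in the OVOL1, OVOL2 and epithelial lines.

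MARVELD3 (XLOC_007791, chr16:71660070-71675868, plus strand), the third MARVEL protein of the strand, was the lowest member in PC3-EMT14, at 0.0676 FPKM. It was at 0.887 FPKM with OVOL1. With OVOL2 it was at 2.34 FPKM against 0.0668 FPKM, 35.1-fold higher, and in PC3-Epi at 8.48 FPKM against 0.0690 FPKM, 123-fold higher. These are the widest folds among the members, and they rest on a level near 0 in PC3-EMT14. PC3-Epi was 3.62-fold above PC3-EMT14-OVOL2, the widest gap of any member between these lines. With 1 FPKM added to every value, the log2 fold changes of MARVELD3 became 0.82, 1.65 and 3.15 in the OVOL1, OVOL2 and epithelial lines. On that scale OCLN with OVOL1 (0.97) and MARVELD2 with OVOL2 (just under 1) also fell short of 2-fold.

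TJP3 (XLOC_009954, chr19:3728374-3750682, plus strand), a scaffold expressed mainly in epithelia, was at 1.01 FPKM in the mesenchymal line and 3.84 FPKM with OVOL1, 3.82-fold higher. With OVOL2 it was at 5.32 FPKM against 0.995 FPKM, 5.35-fold higher. In PC3-Epi it was at 4.89 FPKM against 1.03 FPKM, 4.76-fold higher. Both OVOL lines therefore had a TJP3 level close to that of PC3-Epi, within 1.27-fold. In the OVOL1 comparison its log2 fold change, 1.93, exceeded that of 99.1% of all genes.

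TJP1 (XLOC_007071, chr15:29992357-30114706, minus strand), the scaffold also found at other cell contacts, was at 13.0 FPKM in the mesenchymal line and 13.8 FPKM with OVOL1, 1.07-fold higher. With OVOL2 it was at 18.3 FPKM against 12.9 FPKM, 1.43-fold higher, and in PC3-Epi at 15.7 FPKM against 13.3 FPKM, 1.18-fold higher. Per transcript length, PC3-EMT14 thus had more TJP1 than TJP3 transcript, as did the other lines. The entries of TJP1, TJP3 and CLDN4 are shorter than the genes in the current annotation on this build, which have further upstream starts.

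The isoform tables held 13 entries for the 9 genes: 6 genes had 1, MARVELD3 and TJP1 had 2 each, and CLDN7 had 3, of which 1 was listed at 0 in every line. The isoform levels of a gene summed to its gene level. For CLDN7, isoform TCONS_00014601 was at 2.08 FPKM and TCONS_00014602 at 9.57 FPKM in PC3-EMT14. With OVOL1 they were at 6.90 and 21.7 FPKM. With OVOL2 they were at 22.7 and 51.2 FPKM, and in PC3-Epi at 28.0 and 64.2 FPKM. Both isoforms were higher, and the share of TCONS_00014601 was 17.8% in PC3-EMT14, 24.1% with OVOL1, 30.7% with OVOL2 and 30.4% in the epithelial line.

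For TJP1, the share of TCONS_00011527 was 33.8% in PC3-EMT14, 34.9% with OVOL1 and 38.0% with OVOL2, and it was 24.9% in PC3-Epi. Its level was 4.39 FPKM in PC3-EMT14, 4.83 FPKM with OVOL1, 6.96 FPKM with OVOL2 and 3.90 FPKM in PC3-Epi. The other isoform, TCONS_00011528, was at 8.60, 9.01, 11.4 and 11.8 FPKM in the same order. The balance of the TJP1 isoforms in the OVOL lines thus did not lie between those of PC3-EMT14 and PC3-Epi. For MARVELD3, TCONS_00012720 held 53.4% with OVOL1, 57.8% with OVOL2 and 51.4% in the epithelial line. Its share in PC3-EMT14, 23.0%, comes from levels of 0.0155 and 0.0520 FPKM for the 2 isoforms. Splitting reads between isoforms is an estimate, whose error is unknown here.

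**Figure D4:**
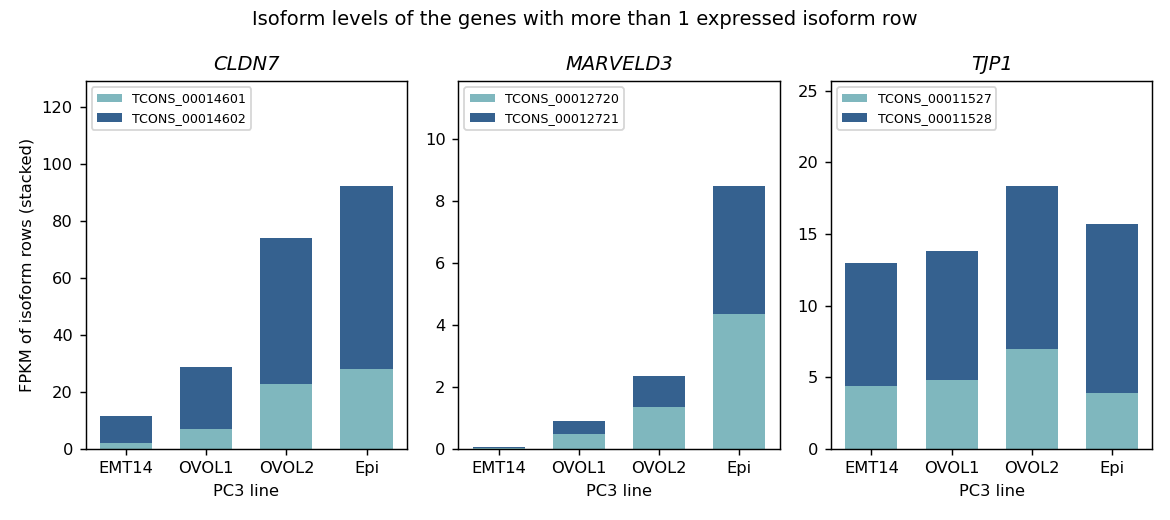
FPKM of the expressed isoform entries of CLDN7, MARVELD3 and TJP1, stacked, in the 4 lines (axis labels shortened to EMT14, OVOL1, OVOL2 and Epi, 1 pooled value each, a separate linear axis per gene). Both CLDN7 isoforms are highest in PC3-Epi, and the lighter TJP1 isoform is lowest there, at 3.90 FPKM.

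The genes beside the members on the chromosome were read as well. The 5 nearest expressed entries on each side of a member were taken. Their median log2 fold change ran from -0.29 (TJP1) to 0.14 (CLDN3 and CLDN4) with OVOL1. With OVOL2 it ran from -0.50 (CLDN1) to 0.19 (TJP3), and in PC3-Epi from -0.61 (TJP1) to 0.10 (MARVELD3).

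Other tight junction genes were read from a list of 54, all with an entry. With OVOL1, 34 reached 1 FPKM, 4 were at least 2-fold higher and 0 lower, beside 2.06% and 1.23% of all genes. With OVOL2, 34 reached 1 FPKM, 6 were higher and 1 lower, beside 4.16% and 2.58% of all genes. In PC3-Epi, 36 did, with 8 higher and 4 lower, beside 7.09% and 7.96% of all genes. The lower counts are near the shares over all genes and are no result about the list. The list's median log2 fold change was 0.06, 0.12 and 0.17, and 30, 27 and 24 of those at 1 FPKM or more were within 2-fold. Between the OVOL lines, 34 reached 1 FPKM, 2 were higher with OVOL2 (CGN and CRB3) and 0 lower, beside 1.68% and 0.801% of all genes.

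The largest differences on the list were in CRB3, the small Crumbs protein of the apical polarity complex. The mesenchymal line had 0.531 FPKM and the OVOL1 line 16.0 FPKM. CRB3 was at 0.525 and 41.5 FPKM in the OVOL2 table and at 0.542 and 49.1 FPKM in the PC3-Epi table. The other 7 genes that the list groups as polarity genes were within 2-fold, apart from PARD6G, at 1.57 FPKM in PC3-Epi against 4.01 FPKM. This grouping leaves out INADL, which is counted with the scaffold genes below. LSR and ILDR1 encode angulins, which recruit tricellulin to the corners between cells. LSR was at 1.35 FPKM in the mesenchymal line and 28.1 FPKM with OVOL1, at 1.34 and 37.8 FPKM with OVOL2, and at 1.38 and 58.1 FPKM in PC3-Epi. ILDR1 was at 0.285 and 2.11 FPKM with OVOL1, 0.282 and 3.91 FPKM with OVOL2, and 0.292 and 3.26 FPKM in PC3-Epi. The folds of both angulin genes were thus larger than those of MARVELD2, their partner.

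Of 12 further scaffold genes, 10, 10 and 11 reached 1 FPKM in the OVOL1, OVOL2 and PC3-Epi comparisons. Of these, 1, 3 and 4 were higher, beside 2.06%, 4.16% and 7.09% of all genes. INADL, a multi-PDZ scaffold, was 2.08-, 3.21- and 3.55-fold higher in these comparisons. CGN (cingulin), which links the junction to actomyosin, was 1.46-fold higher with OVOL1, 3.57-fold with OVOL2 and 5.97-fold in PC3-Epi. AMOTL1 was 1.94-, 2.20- and 2.73-fold higher. CGNL1, a relative of cingulin, was under 1 FPKM in the 3 mesenchymal-derived lines and reached 1.84 FPKM in PC3-Epi. MPDZ was at 1.14 FPKM in PC3-Epi against 2.54 FPKM, the 1 scaffold gene that was at least 2-fold lower.

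Some listed genes were at least 2-fold lower in 1 or more comparisons, and others, such as ESAM, were lower by less. JAM3, an immunoglobulin-type junctional adhesion molecule, was at 2.57 FPKM in the mesenchymal line and 1.34 FPKM with OVOL1, 1.92-fold lower. It was 3.40-fold lower with OVOL2 and 7.78-fold lower in PC3-Epi. CLDN14 was 7.73-fold lower in PC3-Epi, at 0.374 FPKM against 2.89 FPKM, while it was at 1.92 FPKM with OVOL1 and 2.75 FPKM with OVOL2. CXADR, the coxsackievirus and adenovirus receptor, went the other way, at 4.84 FPKM in PC3-Epi against 0.465 FPKM, and stayed under 1 FPKM in both OVOL lines. Of the 5 signalling or nuclear partners on the list, 0 passed 2-fold.

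**Figure D5:**
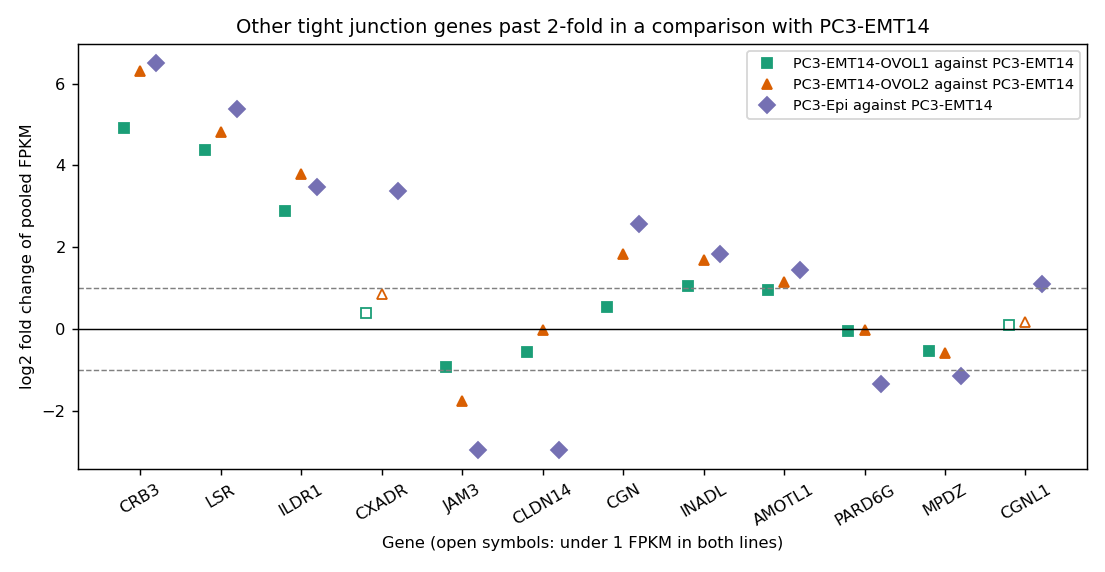
Log2 fold change of pooled FPKM against PC3-EMT14 for the 12 listed tight junction genes past 2-fold in at least 1 of the 3 comparisons, in the OVOL1 line (squares), the OVOL2 line (triangles) and the epithelial line (diamonds). Open symbols are under 1 FPKM in both lines and dashed lines mark 2-fold. CRB3 reaches 6.50 in PC3-Epi, and JAM3, CLDN14, PARD6G and MPDZ lie below the lower line there.

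Junction regulators and E-cadherin also differed between the lines. CDH1, the E-cadherin gene, was at 0.981 FPKM in the mesenchymal line and 16.2 FPKM with OVOL1, 39.2 FPKM with OVOL2 and 50.6 FPKM in PC3-Epi. ZEB1, a repressor of epithelial genes, was at 7.43 FPKM in the mesenchymal line and at 4.25, 1.77 and 0.130 FPKM in the same order. SNAI2 was at 3.96 FPKM in the mesenchymal line and at 1.47, 1.80 and 1.35 FPKM, while SNAI1 was at 1.32 FPKM and at 2.67, 2.65 and 2.46 FPKM. GRHL2, an activator of epithelial junction genes, was at 0.104 FPKM in the mesenchymal line and at 0.556, 0.544 and 15.0 FPKM in that order. Only in PC3-Epi did it reach 1 FPKM. The part of these genes in the tight junction values was not tested.

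Among 11980 genes, the 5 that are no members and whose log2 fold changes lay nearest to the members' medians were MCOLN3, TINAGL1, DSE, GRHL1 and TBC1D2. Their root mean square distances over the 3 comparisons were 0.13 to 0.15 on the log2 scale. MCOLN3, the nearest, had log2 fold changes of 0.97, 1.29 and 1.95 in the OVOL1, OVOL2 and epithelial lines.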

How the data were processed

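RNA-seq libraries from the 10 samples were sequenced as paired-end reads. The authors used TopHat for alignment to hg19 transcripts. For each pair of lines, Cuffdiff estimated FPKM with upper-quartile scaling and corrections for multiply mapped reads and fragment bias. The 8 deposited tables, gene and isoform level for 4 comparisons, hold 1 pooled FPKM per group. Their further columns, with the authors' fold changes, test statistics, p-values and q-values, were not used, nor was any value per sample analysed here. FPKM was compared within each table, without a pseudocount, in Python 3.11.15. Other fold thresholds, floors, pseudocounts, centring and isoform sums were tried as alternatives. Genes listed at 0 in either line were left out of fold counts. The calling step was tested on simulated data, made by putting known folds without noise on the levels of 1 line. This checks the code only and does not show how reliable a call is. Depth per sample is unknown.

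The 9 members and the lists were chosen with earlier results of these data known. Named genes were all members, listed tight junction genes past 2-fold (at most 12, largest first), the 5 nearest profiles and context genes. C17orf81 was added after its overlap with CLDN7 was seen, and so were the marker genes named. Some listed markers are not reported here. Promoter windows came from RefSeq (GRCh38.p14). Strand-specific counting is not given in the sources used here.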

Additional observations from a re-analysis of the deposited data

How the results depend on the processing

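No paired analysis was possible because the tables hold 1 pooled value per group and no test was run, and no replicate could be left out. The number of members past 2-fold was 5 with OVOL1, and 4 between the OVOL lines, at a threshold of 1.5-fold, and 0 in both at 4-fold. Between the OVOL lines it was 1, CLDN7, with a floor of 5 FPKM or with 1 FPKM added. With 1 FPKM added, the members' median became 0.63 (OVOL1 line), 1.24 (OVOL2 line) and 1.48 (PC3-Epi) on the log2 scale. Of the 54 listed tight junction genes, 8, 12 and 20 passed 2-fold in either direction with no floor (OVOL1, OVOL2 and PC3-Epi comparisons). With a floor of 5 FPKM, 2, 4 and 5 did, again in either direction. Shares over all genes were not computed at the other thresholds and floors, so these counts have none beside them. Of 117 alternative values for single members, 0 reversed and 19 moved by more than 0.1 on the log2 scale, all with 1 FPKM added. Centring on all genes moved these values by up to 0.04. Isoform sums and each OVOL line taken over PC3-EMT14 in its own table gave the same values to 2 decimals. The error of every value is unknown, and low levels such as MARVELD3 in PC3-EMT14 are the least certain.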
